A study of Mus musculus with 9 samples.

Results

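Lens crystallins and lens fibre genes were followed across 9 pools of mouse retina. The list held 30 genes: 16 crystallins (alpha, beta and gamma) and 14 other genes of the lens. A member was any listed gene with a non-control probe whose RefSeq transcript accession maps to its symbol. This rule found 36 probes for 29 of the 30 genes, among 32496 genes or unnamed transcripts on the array, and gave no probe for Dnase2b. The members were chosen by name and not by their values here, although earlier results from these arrays were known.

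The series asked how retinal gene expression is altered by AAP and HAN, peptides that its title describes as binding vascular endothelial growth factor (VEGF) with high affinity. Adult male C57BL/6 mice received phosphate-buffered saline (PBS), AAP or HAN into the vitreous of the right eye, with 1 µM given in the labels for all 3, and retinas were taken at day 7. Each group had 12 mice, and 4 retinas were pooled for an array, so a group consists of 3 pools (PBS 1 to 3, AAP 1 to 3, HAN 1 to 3) and PBS is the negative control. The labels name no genetic alteration, and all 3 groups share the injection itself.

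Crystallins are the soluble proteins that fill lens fibre cells and give the lens its refractive power. The alpha crystallins are small heat shock proteins that keep other proteins from aggregating, while beta and gamma crystallins share a related fold and make up most of the remaining fibre protein. Alpha B crystallin (Cryab) is also made in muscle, heart and glia, several crystallins have been reported in retinal neurons and Mueller glia, and the lens lies against the vitreous through which a retina is dissected.

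The level used throughout is the log2 of an array's processed signal minus that array's 75th percentile, so 0 is the 75th percentile of all spots and a step of 1 is a doubling. Probes differ in brightness for the same amount of RNA, so levels are compared between pools and never between genes. Where genes are set side by side, each is first centred, which means that its own mean over the 9 pools is subtracted. The 75th percentile of the signal ran from 1334 in AAP 3 to 2343 in PBS 1, and between 71.6% and 79.2% of an array's spots stood well above background. All 36 member probes were well above background on all 9 arrays, and no spot was saturated.

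Markers of retinal neurons were even between the pools: all 8 rod photoreceptor and all 8 retinal ganglion cell markers had a lowest pool of at least 50% of the highest. So had 82.5% of all genes tested, and 4 of the 8 Mueller glia and gliosis genes. Skeletal muscle markers set 2 pools apart before any lens result is read. The 12 muscle markers that passed the filter averaged 4.38 (AAP 1) and 3.12 (AAP 3) on the centred log2 scale, and between -1.30 and -0.74 in the other 7 pools; Ckm and Myh1 were too dim to pass. Myl1, a myosin light chain of fast muscle, was at 4.50 in AAP 1 and at -4.40 in AAP 2. Cornea markers, 6 of 8 measured above the filter, averaged 2.66 in PBS 1 and 2.93 in AAP 1 against 0.04 or less in the other pools. The comparisons of AAP with PBS and with HAN are therefore also given without AAP 1 and AAP 3. Levels, spans and pool orders below use all 9 pools.

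The promoters of the gamma crystallins are shown first because Cryga to Crygf kept together across the pools, apart from the beta crystallins. Cryga to Crygf are near-copies of one another, 5 of them neighbouring coding genes on chromosome 1 (Cryge, Crygd, Crygc, Crygb and Cryga in that order) and Crygf apart on the same chromosome. Crygn, on chromosome 5, and Crygs, on chromosome 16, are the more distant members of the family. The 90 bases before each RefSeq start in the GRCm38.p6 table follow, read 5′ to 3′ on the gene's own strand. Capitals mark every TATATA or TATAAA and, in Crygc to Crygf, the whole run of letters around TATATA that these 4 genes share.
Cryga, chr1:65103364-65103453, minus strand: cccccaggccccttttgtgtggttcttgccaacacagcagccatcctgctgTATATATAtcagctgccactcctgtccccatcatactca
Crygb, chr1:65082291-65082380, minus strand: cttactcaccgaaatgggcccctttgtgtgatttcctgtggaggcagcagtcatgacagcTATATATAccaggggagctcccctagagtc
Crygc, chr1:65073533-65073622, minus strand: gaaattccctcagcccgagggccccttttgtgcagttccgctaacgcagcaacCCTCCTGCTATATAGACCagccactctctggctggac
Crygd, chr1:65063441-65063530, minus strand: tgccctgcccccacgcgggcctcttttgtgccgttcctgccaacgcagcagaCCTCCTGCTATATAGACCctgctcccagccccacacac
Cryge, chr1:65051164-65051253, minus strand: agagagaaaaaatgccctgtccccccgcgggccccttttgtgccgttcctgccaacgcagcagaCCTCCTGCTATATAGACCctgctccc
Crygf, chr1:65926432-65926521, plus strand: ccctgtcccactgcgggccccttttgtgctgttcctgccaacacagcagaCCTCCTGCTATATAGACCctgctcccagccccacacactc
Crygn, chr5:24757849-24757938, minus strand: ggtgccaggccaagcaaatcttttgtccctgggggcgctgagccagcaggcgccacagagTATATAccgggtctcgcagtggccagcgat
Crygs, chr16:22811411-22811500, minus strand: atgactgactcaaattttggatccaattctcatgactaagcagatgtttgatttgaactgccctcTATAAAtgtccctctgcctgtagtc

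The capitals begin 25 to 40 bases before the start in these 8 promoters. The shared run of 18 letters, CCTCCTGCTATATAGACC, was taken from the promoters of Crygc, Crygd, Cryge and Crygf after they were read. Among 32851 promoters, searched over 250 bases on both strands, these 4 alone held it (0.0122%). The run contains TATATA, which 5.25% of promoters hold and 8 of the 28 members in the table hold (Cryaa, Cryga to Crygf and Crygn). TATAAA, found in 12.4% of promoters, stands before 6 members, among them Crygs, Crybb1 and Cryba1. TGCTGAC, the core letters of the site that Maf factors bind, is in 3.81% of promoters and before 6 members: Cryaa, Cryba1, Cryba4, Crybb1, Cryga and Lctl. Over the 250 bases, the aligned stretches were 91.1% identical between Cryge and Crygf, 84.5% between Crygd and Cryge, and 82.4% between Crygd and Crygf. Crygc was 83.25% identical to Cryga, 79.9% to Crygd and 73.7% to Crygb, but 72.0% to either Cryge or Crygf. The distant Crygs matched Crygf at 81.1%, over 74 aligned bases only. Signal of the probes for Cryga to Crygf may be shared between these near-copies, since the probe sequences were not used here, so their separate values are uncertain.

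Lens genes differed widely between retinal pools. The median member spanned 4.63 on the log2 scale from its lowest to its highest pool, against 0.45 for the 23889 genes tested. In 24 of 29 members (82.8%) the lowest pool held under 10% of the signal of the highest, a width reached by 1.73% of all genes. Only 2 members, Tdrd7 and Caprin2, kept at least 50% of their highest signal in every pool, as 82.5% of all genes did. The unequal pools belonged to the same groups. The median SD of a member among 3 pools was 1.73 in PBS, 2.37 in AAP and 0.53 in HAN, against 0.099, 0.144 and 0.100 for all genes.

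The order of the pools was nearly common to the list. By the median centred member, PBS 2 (-2.22), AAP 3 (-2.14) and AAP 1 (-1.60) were low, HAN 1 (0.16), PBS 3 (0.72), PBS 1 (0.80), HAN 3 (0.96) and HAN 2 (1.12) followed, and AAP 2 (2.16) was highest. A gap of 1.75 separated AAP 1 from HAN 1, while PBS 2 and AAP 3 were only 0.08 apart, as were PBS 3 and PBS 1. In 27 of 29 members the 3 lowest pools were PBS 2, AAP 1 and AAP 3, and in 26 the highest was AAP 2. The exceptions to the low pools were Tdrd7 and Caprin2. Member probes together took 0.277% of the summed signal in PBS 2 and 4.29% in AAP 2. The low and high pools lay on the same slides: slide 1 held PBS 1 to 3 and AAP 1, slide 2 held AAP 2, AAP 3, HAN 1 and HAN 2, and slide 3 held HAN 3. In RNA from whole tissue, fewer lens cells and less lens RNA per cell cannot be told apart.

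**Figure D1:**
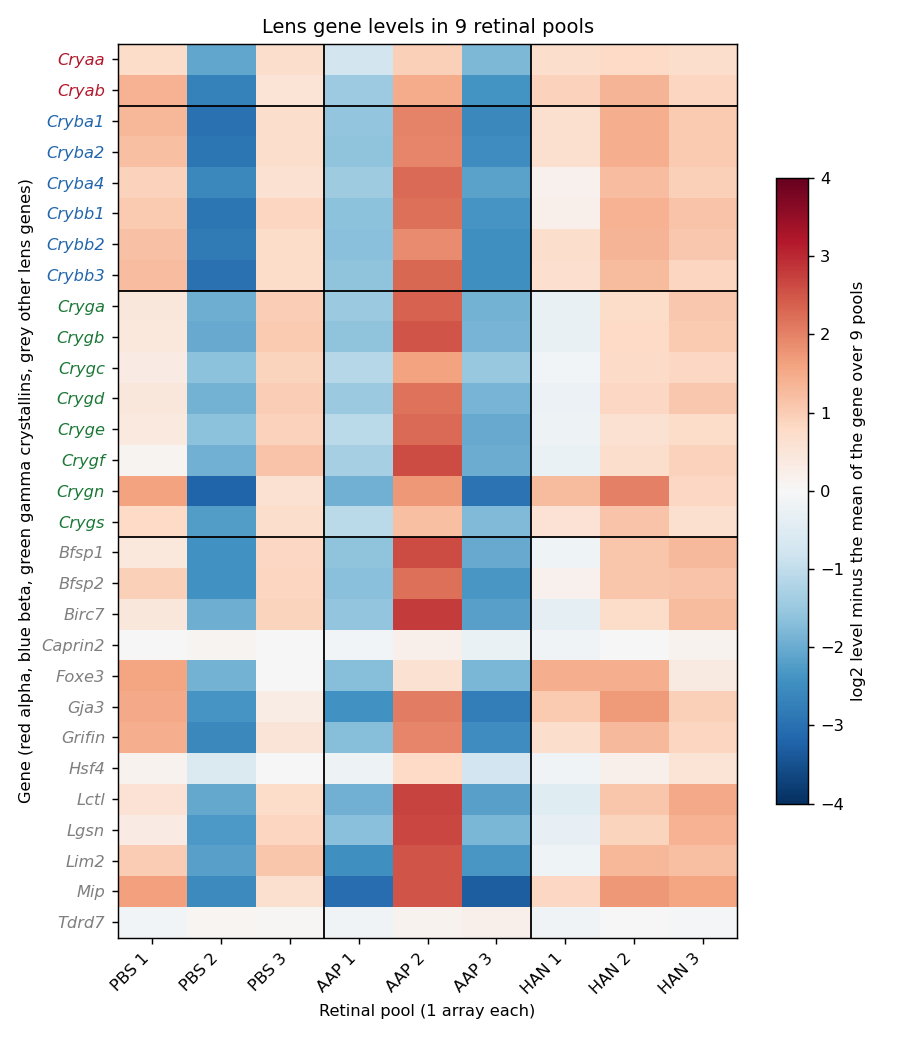
Centred log2 levels of 29 lens genes (vertical axis, grouped as alpha, beta and gamma crystallins and other lens genes) in 9 retinal pools (horizontal axis, 1 array each); colour is the level minus the gene's mean over the pools, on a log2 scale from -4 (blue) to 4 (red). Nearly all genes are blue in PBS 2, AAP 1 and AAP 3 and most are darkest red in AAP 2, while Tdrd7 and Caprin2 stay near white.

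Among the alpha crystallins, Cryaa, the largely lens-specific partner of the alpha pair, was at 8.15, 5.35 and 8.12 in PBS 1 to 3, at 6.69, 8.38 and 5.64 in AAP 1 to 3, and at 8.14, 8.23 and 8.13 in HAN 1 to 3. The 3 HAN pools were nearly equal, and PBS 2, AAP 3 and AAP 1 were low in turn. Its lowest pool kept 12.3% of the highest, above the 10% line. The other Cryaa probe gave 2.70, -2.43 and 1.88 in PBS, -0.83, 3.10 and -1.68 in AAP, and 2.07, 2.78 and 2.06 in HAN, which left 2.17% in the lowest pool. The order of low pools was common to both probes, but the span was 3.03 with the first and 5.53 with the other. On its brightest array the first probe reached 83.6% of the scanner's saturation value and the other 1.64%; the part of this in the narrower span was not tested.

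Cryab, the alpha crystallin with the wider tissue distribution, was at 7.47, 3.39 and 6.63 in PBS, 4.64, 7.57 and 3.69 in AAP, and 7.00, 7.46 and 6.95 in HAN, so it was low in the same 3 pools. Its lowest pool held 5.53% of its highest, and its second probe 4.49%. Muscle markers were raised in AAP 1 and AAP 3, and muscle makes Cryab. Relative to the median beta crystallin in the same pool, centred Cryab stood at 0.16 in AAP 1 and 0.06 in AAP 3, inside its span from -0.17 to 0.19 in the PBS pools, where muscle markers were low. The part of muscle in the Cryab values was not tested. Hspb2, the small heat shock gene next to Cryab on chromosome 9, was at 0.22, -3.05 and -1.13 in PBS, -1.27, -0.32 and -2.45 in AAP, and -0.23, 0.36 and -0.84 in HAN, a 10.6-fold span with PBS 2 and AAP 3 lowest. Hspb6, another gene of that family, spanned only 1.40-fold.

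The 6 beta crystallins formed the tightest class. All 6 were lowest in PBS 2 and highest in AAP 2, and the lowest pool held 2.56% (Crybb3) to 3.81% (Crybb2) of the highest. Crybb2, one of the main basic beta crystallins, was at 6.99, 2.99 and 6.56 in PBS, 4.16, 7.70 and 3.35 in AAP, and 6.52, 7.18 and 6.91 in HAN. Cryba1, an acidic beta crystallin, was at 6.92, 2.62 and 6.29 in PBS, 4.02, 7.58 and 3.02 in AAP, and 6.23, 7.06 and 6.65 in HAN. Both genes thus had the same 3 low pools, and the HAN pools lay within 1 unit of each other. The paired probes of Crybb1 both spanned 5.10, and those of Crybb2 spanned 4.71 and 4.83. Cryba4 with Crybb1, and Crybb2 with Crybb3, are neighbouring coding genes on chromosome 5.

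The 8 gamma crystallins spanned a median of 4.30, against 4.90 for the beta crystallins, and the lowest pool held under 10% of the highest in 7 of 8. Crygd was at 5.92, 3.56 and 6.46 in PBS, 3.97, 7.63 and 3.59 in AAP, and 5.23, 6.28 and 6.53 in HAN. Its low pools lay within 0.41 of one another, and AAP 2 stood more than 1 unit above the next pool. Crygs, the gamma crystallin made late, in the adult lens, was at 7.68, 4.66 and 7.57 in PBS, 5.80, 8.10 and 5.12 in AAP, and 7.47, 8.02 and 7.52 in HAN. Crygn was at 0.38, -4.43 and -0.61 in PBS, -3.15, 0.50 and -4.20 in AAP, and 0.04, 0.79 and -0.41 in HAN, and it alone among the crystallins peaked in HAN 2 rather than AAP 2. The 3 probes of Crygc spanned 3.26, 3.73 and 4.10, and the highest signal of each was 86.8%, 59.9% and 51.4% of the saturation value, so the brightest probe again had the narrowest span.

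Within the common order a further pattern set Cryga to Crygf apart from the beta crystallins. Relative to the median beta crystallin of the same pool, the median of Cryga to Crygf stood at -0.77, 0.97 and 0.28 in PBS 1 to 3, at 0.20, 0.21 and 0.58 in AAP 1 to 3, and at -0.88, -0.63 and -0.06 in HAN 1 to 3. By this median the 3 AAP pools lay above the 3 HAN pools, but single genes overlapped. The lowest of the 6 genes was at -0.47 in AAP 2, and the highest was at 0.03 in HAN 3. How many of all genes separate in this way was not counted. Gamma crystallins spanned less than beta crystallins, and the part of this in these values was not tested. The PBS pools spanned from near the lowest HAN value to above every AAP value. PBS 1 and PBS 3, whose overall lens levels were nearly equal, differed in this measure. All 6 of Cryga to Crygf were lower in PBS 1 than in PBS 3, by 0.53 to 1.00, while all 6 beta crystallins were higher in PBS 1, by 0.18 to 0.63. HAN 2 against HAN 3 had the same division: the 6 gamma genes were lower in HAN 2, with differences from -0.34 to -0.05, and the 6 beta genes higher, by 0.26 to 0.41.

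Crygn did not go with Cryga to Crygf. It was 0.99 higher in PBS 1 than in PBS 3, and relative to the beta crystallins it stood at 0.42, -0.32 and -0.09 in PBS, -0.31, -0.37 and -0.50 in AAP, and 0.64, 0.64 and -0.22 in HAN. In PBS 1, HAN 1 and HAN 2 it was above the beta crystallins while Cryga to Crygf were below them. Crygs went with Cryga to Crygf only in part: relative to the beta crystallins it stood at -0.39, 0.66 and -0.02 in PBS, 0.53, -0.89 and 0.70 in AAP, and -0.05, -0.24 and -0.41 in HAN, with the opposite sign in PBS 3 and AAP 2. Crygs spanned 3.43, less than the beta crystallins, and the part of this in its values was not tested. Some fibre genes had the same side of the beta crystallins as Cryga to Crygf in PBS 1 and HAN 1. Bfsp1 was at -0.78 and -0.80 in these pools, Lgsn at -0.85 and -0.97, and Lctl at -0.61 and -1.12. Birc7 was at -0.74 in PBS 1. Directly between PBS 1 and PBS 3, Foxe3 (1.60), Gja3 (1.23), Mip (0.98) and Grifin (0.93) were higher in PBS 1, and Lgsn (-0.52), Birc7 (-0.43) and Bfsp1 (-0.41) lower. Cornea markers were raised in PBS 1, at 2.66 against -0.99 in PBS 3 on the centred scale, and their part in these differences was not tested.

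**Figure D2:**
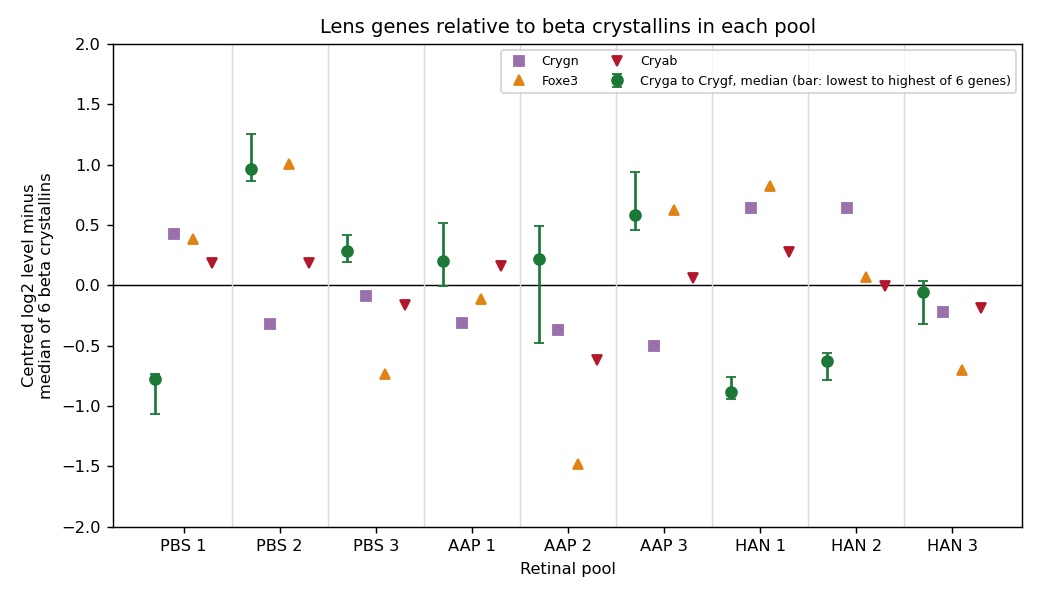
Centred log2 level of Cryga to Crygf (circle: median of 6 genes; bar: lowest to highest gene), Crygn, Foxe3 and Cryab minus the median of the 6 beta crystallins (vertical axis, log2) in each retinal pool (horizontal axis). Cryga to Crygf lie below 0 in PBS 1 (-0.77), HAN 1 (-0.88) and HAN 2 (-0.63) and above it in PBS 2 (0.97), and Crygn lies on the other side of 0 in these 4 pools.

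Among the membrane proteins of fibre cells, Mip had the widest span of any member, while those of Gja3 and Lim2 lay among the crystallins'. Mip, the water channel of the fibre membrane (aquaporin 0), was at 3.33, -0.86 and 2.35 in PBS, -1.35, 4.20 and -1.61 in AAP, and 2.52, 3.42 and 3.26 in HAN, so that the lowest pool kept 1.79% of the highest. PBS 2 was the highest of its 3 low pools, whereas AAP 1 was the highest of those 3 in each of the 16 crystallins. Gja3, a connexin of fibre gap junctions, was at -1.34, -5.20 and -2.56 in PBS, -5.26, -0.81 and -5.62 in AAP, and -1.79, -1.16 and -1.90 in HAN. Lim2, a fibre membrane protein of the cell junctions, was at -1.05, -4.22 and -0.94 in PBS, -4.52, 0.47 and -4.38 in AAP, and -2.23, -0.74 and -0.86 in HAN. In AAP 1 all 16 crystallins were above their PBS 2 level, by 0.41 to 1.39, while these 3 membrane genes were at or below theirs, by -0.49 for Mip, -0.30 for Lim2 and -0.05 for Gja3. In AAP 3, 14 of 16 crystallins were above PBS 2, with Mip at -0.74 and Gja3 at -0.42 against it.

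The beaded filament pair, the fibre cell's own intermediate filaments, went with the crystallins. Bfsp1 (filensin) was at 2.48, -0.37 and 2.89 in PBS, 0.45, 4.66 and 0.05 in AAP, and 1.90, 3.17 and 3.36 in HAN. Bfsp2 (phakinin) was at 3.48, 0.11 and 3.40 in PBS, 0.85, 4.74 and 0.20 in AAP, and 2.70, 3.62 and 3.66 in HAN. PBS 2 was lowest in both, and AAP 2 stood more than 1 unit above the next pool. The lens forms of known enzyme and lectin families were as wide: Lgsn (lengsin, related to glutamine synthetases) kept 3.19% in its lowest pool, Lctl (a klotho-like member of a glycosidase family) 3.42%, Grifin (a galectin-related lens protein) 4.37%, and Birc7, a member of the inhibitor of apoptosis family, 3.18%.

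The regulators of the lens were less uniform. Foxe3, the transcription factor of the lens epithelium, was at -2.47, -5.93 and -4.08 in PBS, -5.77, -3.43 and -5.89 in AAP, and -2.59, -2.60 and -3.71 in HAN. The 3 low pools lay within 0.16 of each other, and PBS 1, HAN 1 and HAN 2 were above AAP 2, the pool in which most fibre genes peaked. Relative to the beta crystallins Foxe3 thus stood at -1.48 in AAP 2 and at 0.83 in HAN 1. Foxe3 spanned 3.45, less than the beta crystallins, and the part of this in these values was not tested. Hsf4, the heat shock factor that acts in fibre cells, was at -2.90, -3.62 and -3.03 in PBS, -3.26, -2.25 and -3.80 in AAP, and -3.20, -2.84 and -2.51 in HAN, with 34.0% of the highest signal in the lowest pool. PBS 2, AAP 3 and AAP 1 were again its lowest pools.

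The RNA-binding proteins Tdrd7 and Caprin2, linked to lens development, kept their level in every retina. Tdrd7, a component of RNA granules, was at 4.76, 4.98 and 4.94 in PBS, 4.74, 5.01 and 5.07 in AAP, and 4.75, 4.88 and 4.82 in HAN. AAP 3, among the lowest pools for nearly all other members, was its highest, and its lowest pool kept 79.3%. Caprin2 was at 1.35, 1.45 and 1.36 in PBS, 1.22, 1.52 and 1.05 in AAP, and 1.20, 1.35 and 1.47 in HAN, with 72.2% in the lowest pool. Tdrd7 went against the label of the list, since its levels did not follow the pool order of the other members. Caprin2 did so in part: over its small span it was lowest in AAP 3 and highest in AAP 2, but PBS 2 was not low.

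**Figure D3:**
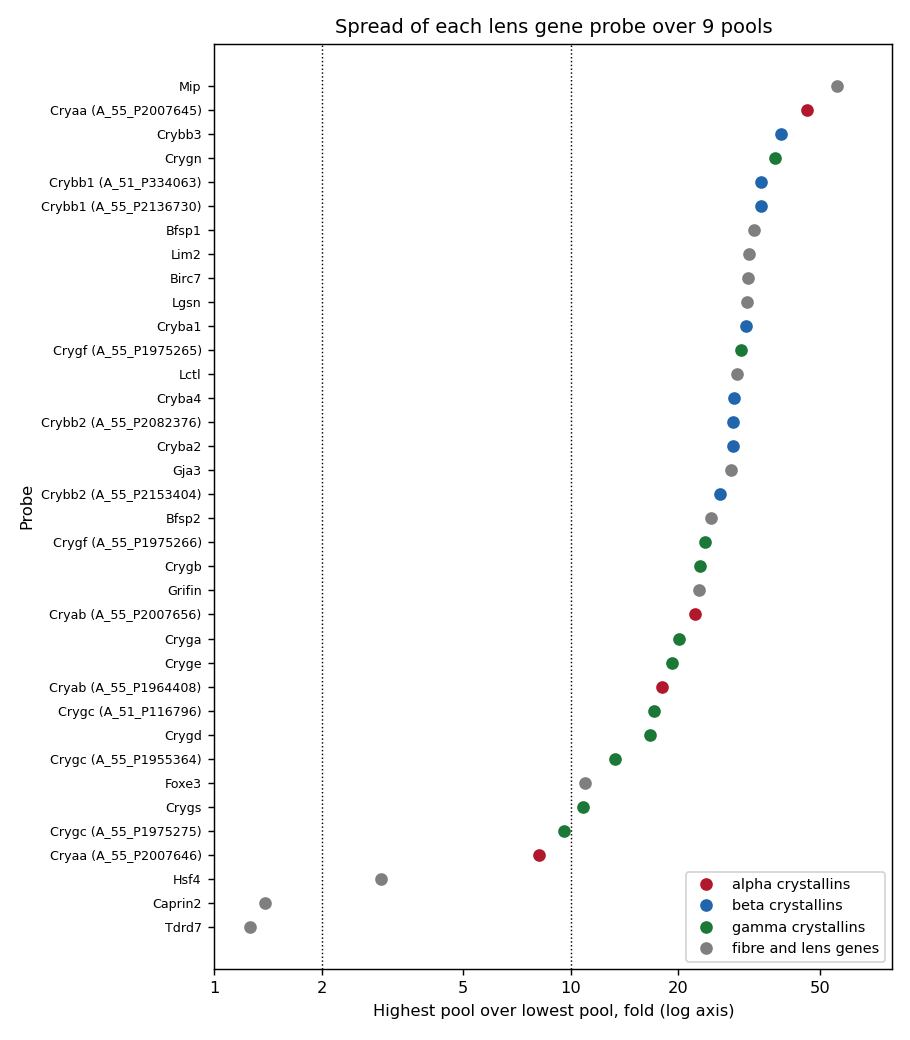
Fold from the lowest to the highest of 9 pools (horizontal log axis) for each of the 36 probes of 29 lens genes (vertical axis, sorted); dotted lines mark 2-fold and 10-fold, which correspond to lowest pools of 50% and 10% of the highest. Mip spans 56.0-fold and Tdrd7 1.26-fold, and the paired Cryaa probes lie far apart, at 8.16-fold and 46.1-fold.

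By class, the alpha crystallins had a lowest pool between 5.53% and 12.3% of the highest, the beta crystallins between 2.56% and 3.81%, and the gamma crystallins between 2.68% (Crygn) and 10.5% (Crygc). The lens level left in the low pools was thus largest, as a share of the brightest probe of a gene, in Cryaa, Crygc and Crygs among crystallins, which are also those whose brightest probes came nearest to the saturation value (83.6%, 86.8% and 67.4%). The other Cryaa probe kept only 2.17%, the smallest share of any crystallin probe, and the other Crygc probes 7.51% and 5.83%. Whether this residue came from retinal cells was not tested.

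Other genes of the lens, named in a separate list, followed only in part. Of 19, all passed the filter, 8 had PBS 2, AAP 1 and AAP 3 as their lowest pools, 6 were highest in AAP 2, and 7 kept at least 50% in their lowest pool. Lenep, a lens epithelial protein, spanned 15.1-fold, the water channel Aqp5 12.6-fold and the fatty acid binding protein Fabp5 11.3-fold. Aqp5 was highest in PBS 1, at 1.57 against 0.43 in AAP 2, and PBS 1 was a pool with raised cornea markers. Among factors that drive crystallin genes, Pitx3 spanned 10.1-fold, Maf 3.39-fold, Sox1 3.01-fold and Prox1 1.42-fold. Of the 10 genes of the lens epithelium and surface ectoderm, 9 passed (Epcam was too dim), 2 kept under 10% (Foxe3, and Cdh1, which epithelia share and which was well above background on 8 arrays) and 5 were steady, among them Pax6 (1.30-fold) and Six3 (1.42-fold), which retinal neurons also express. Cdh1 was highest in AAP 1, at -1.74, a pool low in lens genes. In that pool Krt5 and Krt15 of the cornea list were high, but Krt12 and Slurp1 were not. The part of cornea in Aqp5 and Cdh1 was not tested.

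Small heat shock genes other than Cryab passed in 5 of 6, with Hspb1 at 15.2-fold beside Hspb2, whereas all 7 measured heat shock factors and chaperones, such as Hsp90aa1 (1.32-fold) and Hspa8 (1.18-fold), were steady. Of 7 connexins 3 were steady. Over the 45 measured genes of these 5 lists that are no members, 0 passed the test in any comparison (limma, adjusted p under 0.05). At an unadjusted p under 0.05 there were 2 of 45 in AAP against PBS (Hspb3 and Pax6; 6.79% of all genes), 1 in HAN against PBS (Gjb6; 9.65%) and 0 in AAP against HAN (8.54%).

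Markers of the iris and ciliary body, which lie beside the lens, followed this order in part. Of 8 genes, 4 had PBS 2, AAP 1 and AAP 3 as their lowest pools (Wfdc1, Ltbp2, Col9a1 and Optc), and Mlana, Oca2, Tyr and Aqp1 did not. The 8 genes averaged 0.62, -0.37 and 0.54 in PBS, -0.69, 0.45 and -1.59 in AAP, and 0.24, 0.96 and -0.16 in HAN on the centred scale. Optc, the vitreous protein made by the ciliary epithelium, was at 1.63, -0.67 and 2.08 in PBS, -2.01, 1.75 and -4.41 in AAP, and 1.32, 2.10 and 0.31 in HAN, with PBS 2, AAP 1 and AAP 3 lowest. Ltbp2, a matrix protein of the zonule and ciliary body, was at 1.21, -2.06 and 1.30 in PBS, -2.16, 0.86 and -4.24 in AAP, and 0.71, 1.06 and -0.58 in HAN, with the same 3 pools lowest. The part of these tissues in the lens values was not tested.

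By a fixed measure of likeness, 10 genes or unnamed transcripts that carry no listed symbol were nearest to the crystallins. The measure was the root mean square distance, over 9 pools, between a gene's centred levels and the median of the 16 crystallins, among 1189 other genes spanning at least 2 log2 units. An unnamed transcript, ENSMUST00000112385, was nearest at 0.126, closer than any of the crystallins themselves, which lay at 0.133 to 0.654 from their own median. Nwd1 (0.35), Tmem40 (0.40), Slc22a2 (0.40, well above background on 6 arrays), Fabp5 (0.42) and Sox1ot (0.44), a non-coding transcript from the Sox1 locus, came next among named genes. The other 4 were unnamed transcripts at 0.42 to 0.46. Members were left out by symbol alone, so an unnamed transcript may come from a listed gene, which was not checked.

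The comparisons between groups asked whether AAP or HAN shifted these genes. No member passed the test in any of them. Pools of a group differed so much that the median member's 95% interval reached 3.02 log2 units to either side, against 0.24 for all genes. Each comparison had 3 pools against 3 in a single limma fit over all genes, and the p-values measure the spread between pools. AAP and HAN were compared with the same 3 PBS pools, so their differences from PBS are not independent of each other.

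In AAP against PBS, 25 of 29 members were lower and 4 higher, with a median log2 change of -0.25 and a range from -1.19 to 0.10, beside a median of 0.00 over all genes. None was called (limma adjusted p from 0.862 to 0.999; 0.00419% of all genes called), none had an unadjusted p under 0.05 (6.79% of all genes) and none had groups that did not overlap (11.9%). Class medians were -0.42 for alpha, -0.33 for beta and -0.20 for gamma crystallins and -0.23 for the other lens genes. The sign depended on single pools: the median member was at -1.66 without AAP 2, at -1.23 without PBS 2, and at 0.15 to 0.47 without PBS 1, PBS 3, AAP 1 or AAP 3. AAP 1 and AAP 3, the pools with raised muscle markers, were also the AAP pools low in lens genes, and AAP 2 was the highest of all pools. With AAP 2 as the sole AAP pool, the median member was thus at 2.32 and 25 members had the opposite sign. That reversal rests on 1 array and cannot separate muscle from lens content or from AAP.

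In HAN against PBS, 27 of 29 members were higher and 2 lower, with a median of 1.01 and a range from -0.07 to 1.69, beside 0.01 over all genes. Again none was called (limma adjusted p from 0.724 to 0.938; 0.00419% of all genes), none had an unadjusted p under 0.05 (9.65%) and none had groups without overlap (20.9%). Class medians were 1.14 for alpha, 1.32 for beta, 0.69 for gamma crystallins and 1.00 for the other lens genes. The size rested on PBS 2: the median was 0.03 without it and 0.87 to 1.55 without any other pool. With slide as a fixed block it was -0.44 (-1.29 for AAP against PBS and -0.62 for AAP against HAN), and 20 of 29 members changed sign. PBS and HAN pools shared no slide, so that value was reached only through the AAP pools. Slide and HAN therefore cannot be told apart in the comparison with PBS.

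In AAP against HAN, 28 of 29 members were lower in AAP and 1 higher, with a median of -1.27 and a range from -2.65 to 0.12, beside 0.00 over all genes. None was called (limma adjusted p from 0.574 to 0.833; 0% of all genes), none had an unadjusted p under 0.05 (8.54%) and none had groups without overlap (14.3%). Class medians were -1.55, -1.64 and -0.84 for alpha, beta and gamma crystallins and -1.19 for the other lens genes. Without AAP 2 the median was -2.56, with 0 members called and 26 of 29 at a limma unadjusted p under 0.05 (3077 of all 23889 genes). That setting left only AAP 1 and AAP 3, both low in lens genes, against the HAN pools. Nearly all members shared 1 order of pools, so their p-values are not independent of each other. The median was -0.71 without AAP 1 and -0.53 without AAP 3. It was 1.14 with AAP 2 as the sole AAP pool, where 27 members had the opposite sign.

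**Figure D4:**
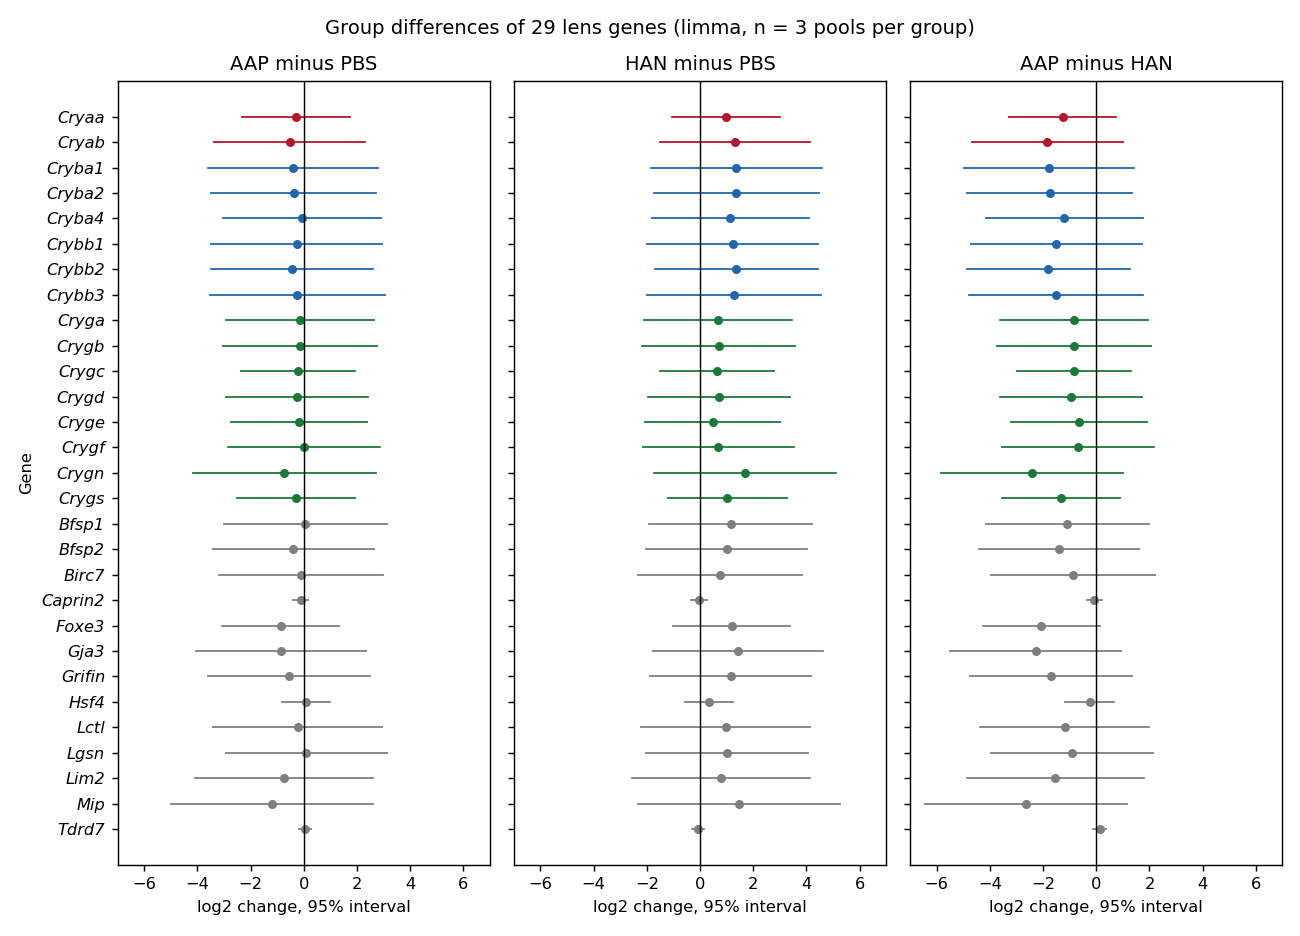
Log2 change of 29 lens genes (vertical axis) in 3 panels, AAP minus PBS, HAN minus PBS and AAP minus HAN (horizontal axes, log2); points are limma estimates and bars their 95% intervals, with n = 3 pools per group. Every interval includes 0, and those of Tdrd7, Caprin2 and Hsf4 are far narrower than the rest.

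Single genes of each role show the same. Cryaa averaged 7.21 ± 1.61 in PBS, 6.90 ± 1.38 in AAP and 8.17 ± 0.05 in HAN (SD, n = 3), and its log2 changes were -0.30 (95% interval -2.33 to 1.72) for AAP against PBS, 0.96 (-1.06 to 2.99) for HAN against PBS and -1.27 (-3.29 to 0.76) for AAP against HAN. Crybb2 averaged 5.52 ± 2.20, 5.07 ± 2.31 and 6.87 ± 0.33, with changes of -0.45 (-3.51 to 2.62), 1.36 (-1.71 to 4.42) and -1.80 (-4.86 to 1.26). Crygd averaged 5.31 ± 1.54, 5.06 ± 2.23 and 6.01 ± 0.69, with changes of -0.25 (-2.92 to 2.42), 0.70 (-1.97 to 3.37) and -0.95 (-3.62 to 1.72). In all 3 crystallins the PBS and AAP groups each held low and high pools, and the groups overlapped.

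Mip averaged 1.60 ± 2.19 in PBS, 0.41 ± 3.28 in AAP and 3.07 ± 0.48 in HAN (SD, n = 3), with changes of -1.19 (-4.98 to 2.60), 1.46 (-2.33 to 5.25) and -2.65 (-6.45 to 1.14) in the same order, the largest of the list for AAP against HAN. Foxe3 averaged -4.16 ± 1.73, -5.03 ± 1.38 and -2.97 ± 0.64, with changes of -0.87 (-3.07 to 1.33), 1.19 (-1.01 to 3.39) and -2.06 (-4.26 to 0.14), and the last had the smallest adjusted p of any member (limma, 0.574; 0.311 to 0.999 over the members under the alternatives tried). Tdrd7 averaged 4.89 ± 0.11, 4.94 ± 0.18 and 4.82 ± 0.06, and its changes of 0.05 (-0.19 to 0.29), -0.07 (-0.31 to 0.16) and 0.12 (-0.11 to 0.36) had intervals far narrower than those of the other 5 genes.

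**Figure D5:**
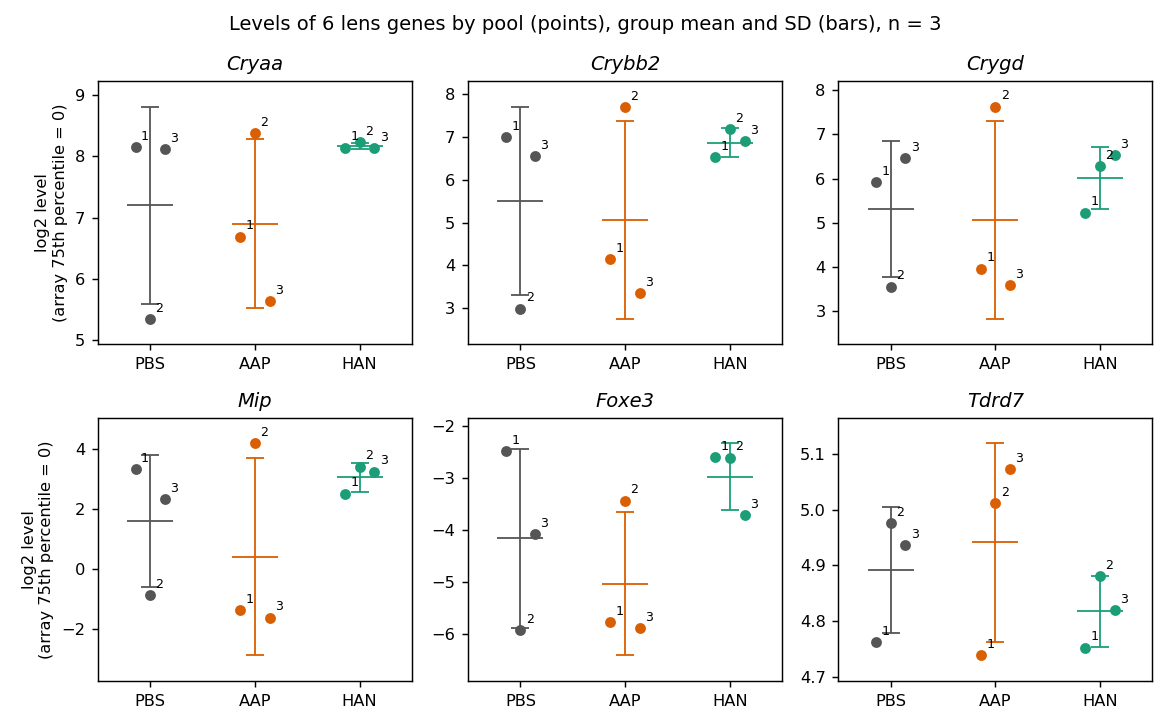
Log2 levels relative to the array's 75th percentile (vertical axes, a separate scale for each gene) of 6 lens genes by group (horizontal axes); points are the 3 numbered pools of each group, and bars the group mean and SD. PBS 2, AAP 1 and AAP 3 lie low in Cryaa, Crybb2, Crygd, Mip and Foxe3, and no such order is seen in Tdrd7.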

How the data were processed

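The authors deposited a table of values beside 1 scanner file per array. The intensity of each spot was read, per the file headers, with Agilent Feature Extraction 11.0.1.1 (Cy3, 1 colour; design annotated on mm9), background-subtracted and spatially detrended within an array, and not normalised between arrays. At least 99.7% of the deposited table's values equalled the probe's mean processed signal within a relative tolerance of 0.0001, so the table is that intensity on a linear scale; its array medians ran from 164.7 (AAP 3) to 298.3 (PBS 1). The sources used here do not give the authors' own test between groups.

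Control spots and 103 to 160 outlier spots on each array were left out. Log2 of the processed signal minus the array's 75th percentile was averaged over a probe's spots, giving 39429 probes. RefSeq accessions, without versions, named 26055 probes (19751 symbols, assembly GRCm38.p6). Probes well above background on all arrays of at least 1 group were kept, and the brightest kept probe stood for a gene, which left 23889 genes. limma 3.58.1 (R 4.3.3; lmFit, eBayes, two-sided) fitted 1 mean per group over 9 arrays, with Benjamini-Hochberg adjustment over all genes, a threshold of 0.05, 6 residual and 1.85 prior degrees of freedom. The procedure was tested on simulated data. The number of arrays limits the precision.

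Members, gene lists and the rule for naming genes (every member, and the 10 most alike other genes) were chosen with earlier results of these data known. A member was called steady where its lowest pool held at least 50% of its highest, and wide under 10%. Promoter sequences are RefSeq's; 28 of the 30 listed genes were matched. Alternatives were other background corrections, normalisations, filters and probe rules, slide or replicate number as a block, array weights, the deposited table and each pool left out; the normexp correction (offset 50) used the median spot signal, because the files hold no mean signal. An analysis with AAP 2 as the sole AAP pool was chosen after seeing the data. Replicate numbers come from the sample labels. A result for 1 gene of the comparison lists is not reported here.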

Additional observations from a re-analysis of the deposited data

How the results depend on the processing

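No member passed the threshold in any comparison under any alternative (22 for AAP against PBS, 20 for HAN against PBS, 22 for AAP with HAN); the smallest adjusted p of a member over them (limma) was 0.425, 0.340 and 0.311. The class ranges over the pools moved by less than the spread between pools under the 5 alternatives that change the members' values; both filters on dim probes left them as they were. Leaving out 1 pool took the median member from -1.66 to 0.47 in AAP against PBS, from 0.03 to 1.55 in HAN against PBS and from -2.56 to -0.53 in AAP against HAN. With AAP 2 as the sole AAP pool, whose spread is assumed to be that of the other groups, the median was 2.32 against PBS and 1.14 against HAN. There the changes of Cryaa (1.17), Crybb2 (2.19), Crygd (2.32), Foxe3 (0.73) and Mip (2.60) against PBS, and of Cryaa (0.21), Crybb2 (0.83), Crygd (1.61) and Mip (1.13) against HAN, had the opposite sign. With 1 pool left out, the change against PBS after AAP ran from -1.23 to 0.33 for Cryaa, from -1.76 to 0.41 for Crybb2, from -1.53 to 0.49 for Crygd and from -0.017 to 0.15 for Tdrd7, and that after HAN from -0.17 to 1.27 for Crygd.

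With slide as a fixed block, where a slide holds few pools of a group, the median member was -1.29 for AAP and -0.44 for HAN against PBS and -0.62 between the peptides, with 4, 20 and 6 of 29 signs turned; after HAN the single genes included Crybb2 at -0.036, Crygd at -1.20 and Mip at -1.28, and Tdrd7 after AAP was at -0.15, as it was within slide 1. No slide held both PBS and HAN pools, so the blocked change after HAN was reached only through the AAP pools. AAP 1 was the sole AAP pool on the slide of the PBS pools. Slide and HAN cannot be told apart against PBS, and the turned signs are not a slide-adjusted effect of HAN. Over all genes, 1 was called in AAP against PBS; it was 0 with normexp, quantile or median scaling, no filter, the replicate block or AAP 2 alone, 48 with the slide block, 79 within slide 1, and 0 to 12 with 1 pool left out (12 without AAP 2, 1 without AAP 1, 0 without any other pool). In HAN against PBS 1 was called, 0 with normexp or the replicate block, 2 with the slide block, 3 with array weights and 1 to 3 with 1 pool left out (3 without HAN 1 or HAN 2). In AAP against HAN 0 were called, and 0 to 13 with 1 pool left out (13 without AAP 2, 1 without HAN 1 or HAN 2).

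Same-numbered pools of different groups had deviations that correlated between -0.28 and 0.40 across genes, and differently numbered pools between -0.62 and 0.54. Same-numbered pools were thus not set apart by these values, which cannot show whether samples were processed as pairs. The replicate block left the median member at -0.25, 1.01 and -1.27.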

Other observations

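Marker lists of other tissues and cells did not all follow the pool order of the lens genes. Pigment epithelium genes, 7 of 8 above the filter (Best1 was too dim), averaged 0.97 in AAP 1 and -0.65 in HAN 3 on the centred log2 scale and lay between -0.21 and 0.09 in the other 7 pools. Erythrocyte genes, 3 of 5 measured above the filter, averaged 0.94 in AAP 1. They averaged -0.70 in AAP 2, where lens genes were highest, and -0.66 in AAP 3, where lens genes were low. Mueller glia and gliosis genes averaged 0.54 in PBS 1 and -0.85 in AAP 3; among them Timp1, an inhibitor of matrix metalloproteinases, spanned 15.1-fold and Slc1a3, the glial glutamate transporter, 1.13-fold.

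Vim, the intermediate filament of glia and of lens cells, was at 4.36, 2.84 and 3.38 in PBS 1 to 3, 2.81, 3.65 and 2.18 in AAP 1 to 3, and 3.89, 3.91 and 3.53 in HAN 1 to 3. PBS 2, AAP 1 and AAP 3 were its lowest pools, as they were for 27 of the 29 lens genes. Among the 8 Mueller glia and gliosis genes, Vim was the only 1 with these lowest pools.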
